A study of Mus musculus with 2 samples.

Results

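Noradrenaline, adrenaline and dopamine act on the brain through G-protein-coupled receptors, and monoamine oxidases break the transmitters down inside cells. The 9 genes described here encode 6 adrenergic receptors (Adra1a, Adra1b, Adra1d, Adra2a, Adra2c and Adrb1), the dopamine receptor Drd5, and both monoamine oxidases (Maoa and Maob). They were chosen by name, as the non-control array probes whose accession belongs to one of these symbols, and are 9 of 15738 named genes measured. In mice without interleukin-18 none of the 9 differed by 1.5-fold from wild type. In the main scaling Maoa differed most, 1.27-fold higher in Il18-/-, followed by Adra1d, 1.18-fold lower. Scaling to spike-in controls turned this order round, with Maoa at 0.048 and Adra1d at -0.54 on the log2 scale.

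The samples were brain RNA of male mice of background strain C57Bl/6 N at 12 weeks of age, one group Il18+/+ (wild type) and the other Il18-/-, which lacks the cytokine interleukin-18. No treatment is named. Each genotype's RNA was a pool from 7 mice, read on 1 one-colour Agilent array per genotype. Each group is thus 1 sample. Without replicates no test could be run. Precision depends on the number of arrays, and with 1 per genotype it cannot be estimated between animals or pools. Hippocampus is the labelled tissue, but prefrontal cortex is named in the extraction protocol. How the Il18 allele was made is not given in the sources used here.

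Noradrenaline reaches hippocampus and cortex along fibres from the locus coeruleus in the brainstem, whose cell bodies lie outside both. Alpha1 receptors couple to Gq and phospholipase C, alpha2 receptors to Gi, which lowers cyclic AMP and restrains transmitter release, and beta receptors to Gs, which raises cyclic AMP. Monoamine oxidase A prefers serotonin and noradrenaline as substrates. Monoamine oxidase B, abundant in astrocytes and serotonergic neurons, acts on phenethylamine, and both enzymes act on dopamine.

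A level here is the log2 signal after subtraction of its array's 75th percentile, and a difference is the level in Il18-/- minus that in Il18+/+. Well above background held for 67.2% of probes in Il18+/+ and 65.4% in Il18-/-. Over the 15738 measured genes the median difference was 0.01, and 90% of genes lay between -0.45 and 0.33. At 1.5-fold or more, 1.68% of these genes stood above wild type in Il18-/- and 2.57% below it. Il18 itself read 1.38 in Il18+/+ and -0.11 in Il18-/-. Where its probe lies relative to the deleted part is not known here, so this value does not check the genotype. All 12 hippocampal and all 10 neocortical marker genes on the lists were measured, so the markers do not settle which region was sampled. Because these are bulk samples, fewer cells of a type and less RNA per cell cannot be told apart.

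The 9 genes were read by 12 probes of 1 spot each, and all 12 probes were well above background on both arrays. None was an outlier spot. At 1.5-fold, 0 of 9 members were higher and 0 of 9 were lower, beside 1.68% and 2.57% of all measured genes. By sign alone 6 members were lower and 3 higher, with a median of -0.10, where 47.4% of all genes were lower. Scaling the arrays to 8 spike-in control probes lowers every difference by 0.30, so that the median of all genes becomes -0.29. Under that scaling 8 members were lower, since Adra1a and Adra2c turned negative, and no member reached 1.5-fold. Most of all measured genes were lower under it too. Before the 0.30 was taken off, their 95th percentile was 0.33. Levels of different probes are not comparable with each other, so only the genotypes are set side by side. Intensities below are those of the scanner software before scaling, while every log2 difference and fold is taken after each array's 75th percentile was subtracted, so it is not the plain ratio of the intensities.

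**Figure D1:**
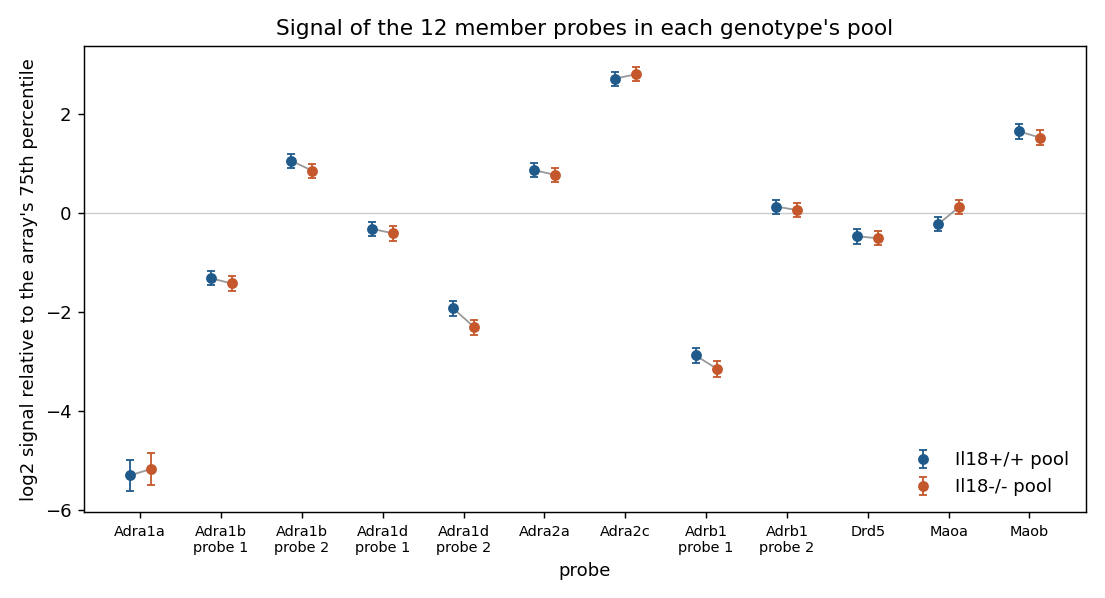
Log2 signal relative to the array's 75th percentile (vertical axis) of each of the 12 member probes (horizontal axis), with 1 point per genotype pool and error bars for the scanner software's own error of the spot. The 2 points of each probe lie close together, the widest gaps being those of Adra1d probe 2 and Maoa.

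Spots carry an error estimated by the scanner software, which for most of these probes was about proportional to the signal. Combined over both arrays it came to between 0.20 and 0.45 on the log2 difference. Of the 12 probes, 9 differed by less than this error and 3 by more, namely Maoa, the dimmer Adra1d probe and the dimmer Adrb1 probe. None differed by more than 2 such errors. Repeated spots of other probes within 1 log2 unit of a member's level had a tighter median standard deviation, between 0.05 and 0.28, and 9 member probes exceeded that of their own level. Of these 9, 7 also exceeded the 95th percentile of that standard deviation. They were the Maoa, Maob, Adra2a and Adra2c probes, the brighter Adra1b probe and the dimmer Adra1d and Adrb1 probes. Both errors cover measurement within these arrays and leave out differences between animals. On the glass, the measured spots nearest each member spot had a median difference between -0.07 and 0.13, and 7 of 131 such spots differed by 1.5-fold.

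Among the alpha1 receptors, 2 of 3 genes were lower, and all 3 with spike-in scaling, which lowers every gene by 0.30. Most of all measured genes fell below 0 with that scaling. Adra1d, which encodes the alpha1D receptor, was read by 2 probes. The brighter gave an intensity of 553 in Il18+/+ and 531 in Il18-/-, and its scaled difference was -0.09 on the log2 scale. The dimmer gave 182 and 143, a difference of -0.38 with a software error of 0.21. Both probes were lower in Il18-/-, but they differed in size, with a standard deviation of 0.21 against a median of 0.12 over all genes with several probes. Their mean was -0.24, or 1.18-fold lower, and 23.2% of all measured genes differed by at least as much. Read by the brighter probe alone, the difference was -0.09.

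Adra1b, which encodes the alpha1B receptor, gave 277 in Il18+/+ and 264 in Il18-/- on its dimmer probe. Its brighter probe gave 1432 and 1275. The differences were -0.10 and -0.20, so both probes were lower and lay closer together than those of Adra1d. The mean was -0.15, or 1.11-fold lower, a size that 41.1% of all genes reached. Adra1a, which encodes the alpha1A receptor, gave an intensity of 17.6 in Il18+/+ and 19.6 in Il18-/-. Its signal was 4.54 times and 4.56 times the software error. The difference of 0.13 was under its error of 0.45, and it was -0.17 with spike-in scaling, so its direction is not settled.

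The alpha2 receptors, which sit in part on noradrenergic terminals as autoreceptors, had opposite signs. Adra2a, which encodes the main alpha2 subtype of cortex, gave 1261 in Il18+/+ and 1202 in Il18-/-, a difference of -0.10. Adra2c, which encodes the alpha2C receptor, gave 4524 and 4916, a difference of 0.09 that turned to -0.21 with spike-in scaling. Each was within its software error of 0.20. Each was also beyond the 95th percentile of the standard deviation of repeated spots at a like level, 0.095 for Adra2a and 0.073 for Adra2c. Of all genes, 58.4% differed by at least as much as Adra2a and 62.3% by at least as much as Adra2c. Neither value stands out from the other genes on the arrays.

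Promoter windows of this pair are shown because the genes had opposite signs in the main scaling. The windows are the 250 bases before the start of each gene, from RefSeq (GRCm38.p6). That of Adra2a lies at chr19:54045009-54045258 and that of Adra2c at chr5:35278316-35278565, both on the plus strand. Capitals mark matches on either strand to any of 4 motifs. The first is the GC box, spelled GGGCGG. A second is the TATA box, spelled TATAAA. The E-box of the search was CACGTG, which is its own reverse complement. The cAMP response element was searched as TGACGTCA. No matches overlapped in the windows shown.
Adra2a: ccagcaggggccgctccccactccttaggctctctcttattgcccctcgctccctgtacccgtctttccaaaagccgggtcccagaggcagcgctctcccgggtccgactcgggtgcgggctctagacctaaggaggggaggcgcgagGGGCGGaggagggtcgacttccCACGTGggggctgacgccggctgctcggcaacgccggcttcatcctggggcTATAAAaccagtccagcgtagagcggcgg
Adra2c: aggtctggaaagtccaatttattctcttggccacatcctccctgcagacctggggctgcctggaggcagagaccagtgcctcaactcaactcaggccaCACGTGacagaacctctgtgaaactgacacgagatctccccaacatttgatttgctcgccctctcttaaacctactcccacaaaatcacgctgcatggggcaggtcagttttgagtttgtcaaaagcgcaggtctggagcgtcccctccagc
Adra2a held 1 GC box, 1 E-box and 1 TATA box match, and Adra2c held 1 E-box match. Among 32851 RefSeq windows of the same length, 32.7% held a GC box match, 12.4% a TATA box, 6.02% an E-box and 1.55% a cAMP response element. The Adra2a window was 67.6% G and C, higher than in 87.1% of all windows, and that of Adra2c was 53.6%. A match describes letters only, and the arrays hold no measurement of binding.

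Adrb1, which encodes the beta1 receptor, was read by 2 probes. The dimmer gave 94.1 in Il18+/+ and 79.9 in Il18-/-, and the brighter gave 755 and 735. The differences were -0.27 and -0.07, both lower in Il18-/-, with a mean of -0.17 or 1.12-fold lower. At least as large a difference was seen in 36.8% of all genes. As with Adra1d, the dimmer probe gave the larger difference, and by the brighter probe alone Adrb1 was at -0.07. Drd5, which encodes a dopamine receptor that couples to Gs, gave 498 and 495. Its difference was -0.04, which was 0.02 when the arrays were scaled to their medians and -0.34 with spike-in scaling. Of all genes, 83.0% differed by at least as much.

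**Figure D2:**
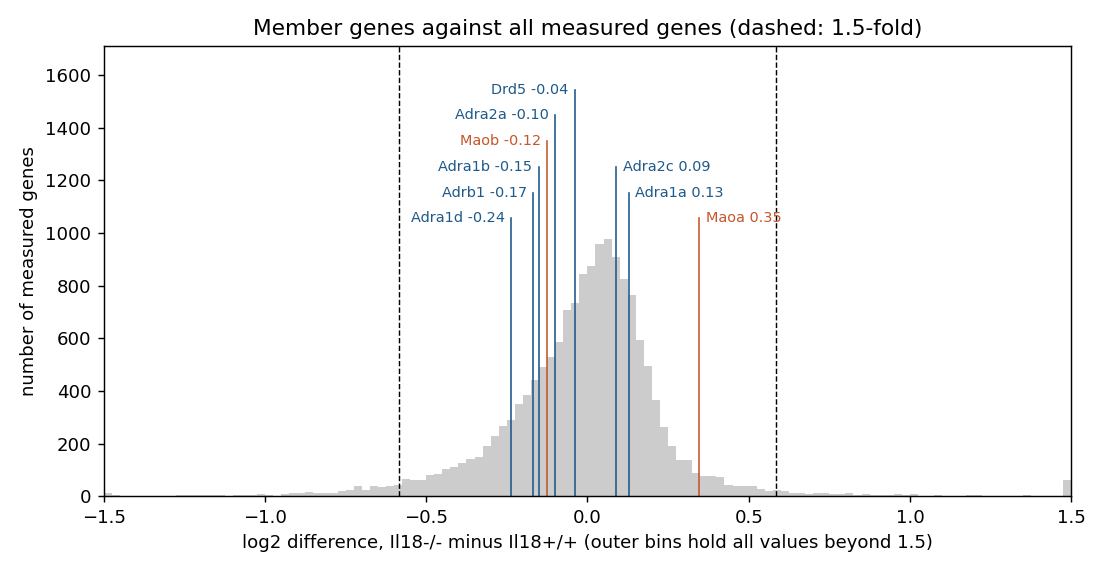
Number of measured genes (grey bars, vertical axis) by log2 difference, Il18-/- minus Il18+/+ (horizontal axis), with receptor genes as blue lines, monoamine oxidase genes as orange lines and 1.5-fold as dashed lines. All 9 members lie inside the dashed lines, and Maoa at 0.35 is the farthest from 0.

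Maoa and Maob, neighbouring genes on the X chromosome, had opposite signs. Maoa gave an intensity of 590.5 in Il18+/+ and 767 in Il18-/-. After scaling it was 1.27-fold higher, or 0.35 on the log2 scale. Of all measured genes 95.5% had a lower difference, and 12.6% differed by at least as much in either direction. The difference exceeded its software error of 0.20, and it exceeded the standard deviation of repeated spots at a like level, which had a median of 0.07 and a 95th percentile of 0.12. Maoa was 1 of 7 member probes beyond that 95th percentile for their own level. Its difference rests on 1 spot per array. Of the 12 neighbouring spots that were well above background, 2 differed by 1.5-fold and their median was 0.05. Under the alternatives Maoa ranged from 0.048, with spike-in scaling, to 0.40, with scaling to the array medians.

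The promoter window of Maoa is shown because it had the largest difference in the main scaling, though not with spike-in scaling. It lies at chrX:16619448-16619697 on the plus strand, with capitals as above.
Maoa: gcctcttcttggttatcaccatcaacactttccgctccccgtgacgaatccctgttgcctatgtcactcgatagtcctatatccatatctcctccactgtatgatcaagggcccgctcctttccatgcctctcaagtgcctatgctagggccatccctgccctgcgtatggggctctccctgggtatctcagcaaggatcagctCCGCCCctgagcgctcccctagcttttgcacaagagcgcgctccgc
It held 1 GC box match on the minus strand, and 0 matches to the TATA box, the E-box or the cAMP response element. It was 56.8% G and C, higher than in 63.6% of all windows. Of the 9 members, 6 had a window in the table used, and the other windows, those of Adra1b, Adrb1 and Drd5, had GC box matches in at least 1 window each. The cAMP response element had no match in any window of the 6.

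Maob gave 2164 in Il18+/+ and 2028 in Il18-/-. The difference was -0.12, or 1.09-fold lower, which was within its software error of 0.20. It was beyond the 95th percentile of 0.088 for the standard deviation of repeated spots at a like level. Of all genes, 49.9% differed by at least as much. Markers of astrocytes, where Maob is abundant, had a median of 0.02 over 10 of 10 measured genes. Of these, 6 were higher and 4 lower, and 1, Fgfr3, was at least 1.5-fold lower, by probes that ranged from -1.52 to -0.20. The summed signal of the astrocyte markers, in multiples of the array's 75th percentile, was 381 in Il18+/+ and 371 in Il18-/-. Most of this sum came from Aldoc, at levels of 8.27 and 8.23, so it says little about the other markers.

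**Figure D3:**
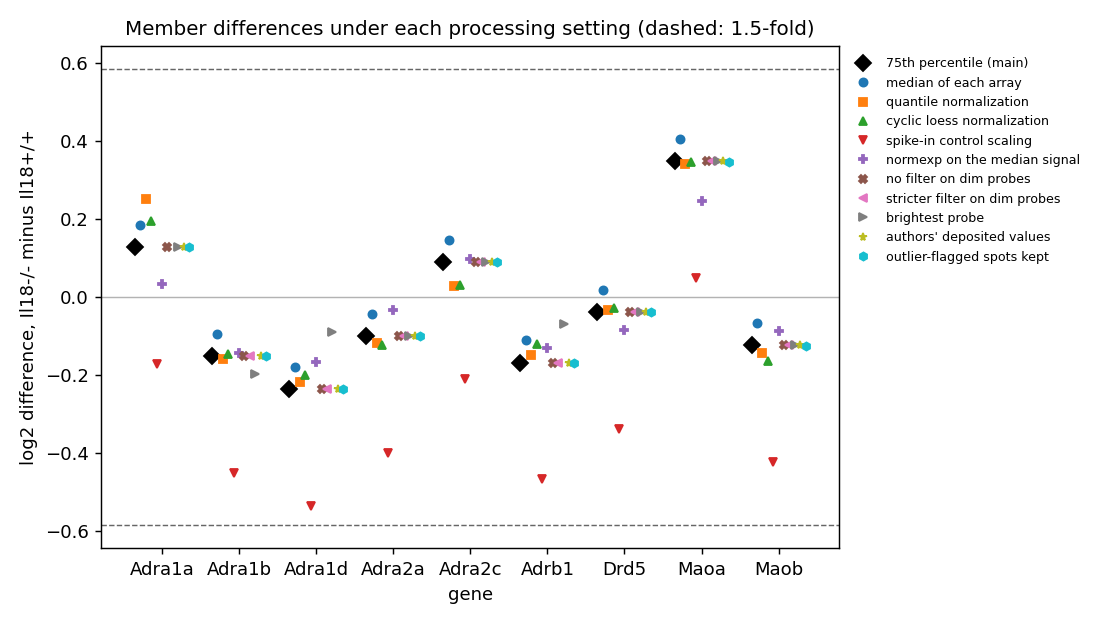
Log2 difference, Il18-/- minus Il18+/+ (vertical axis), of each member gene (horizontal axis) under the main setting (black diamonds) and the alternative settings (other symbols), with 1.5-fold as dashed lines. No point reaches a dashed line, and the lowest point of each gene is the one with spike-in scaling.

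Other genes of monoamine signalling, in 7 lists with 98 genes in all, had 85 measured members. Of these 85, 1 was at least 1.5-fold higher and 4 were at least 1.5-fold lower, beside 1.68% and 2.57% of all measured genes. Their median difference was 0.03, and 46 were higher and 39 lower. The median of the 9 members was -0.10.

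Synthesis genes had 10 of 11 measured, 7 higher and 3 lower, with a median of 0.11 that was -0.19 with spike-in scaling. Pts, whose product helps make the hydroxylases' cofactor tetrahydrobiopterin and whose gene lies near Il18, went from 0.36 to -0.70, 2.09-fold lower. Tph1, which encodes the peripheral tryptophan hydroxylase, went from -4.86 to -4.12, 1.67-fold higher at dim levels. Th and Dbh, the first and last enzymes on the way to noradrenaline, differed by 0.06 and 0.57, the latter from -2.69 to -2.12. Neither reached 1.5-fold.

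Of 9 transport genes, 5 were measured and none differed by 1.5-fold. The median was 0.03, with 4 higher and 1 lower, or -0.27 with spike-in scaling. Slc18a2, which loads monoamines into vesicles, was at 0.35 and Slc6a3, the dopamine transporter gene, at 0.41 from dim levels of -4.63 and -4.22. The noradrenaline transporter gene Slc6a2 and the serotonin transporter gene Slc6a4 were not well above background on either array.

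The remaining catecholamine receptor genes had 6 of 8 measured, 3 higher and 3 lower, with a median of 0.04. Adra2b, the third alpha2 receptor gene, went from 0.17 to 0.31, a difference of 0.14. Drd2 was at -0.37, at dim levels. Drd3 was well above background in Il18+/+ only, at least 1.40-fold higher there with spot error left out, and Taar1 on neither array. Drd5 and the 6 adrenergic members had a median of -0.10, with 5 lower and 2 higher. All 7 were lower with spike-in scaling, as were most of all measured genes.

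Breakdown genes other than the monoamine oxidases had 9 of 10 measured, 5 higher and 4 lower, with a median of 0.03. None differed by 1.5-fold. Aldh2, which oxidises the aldehydes that monoamine oxidases make, was at -0.26, Akr1b3, an aldehyde reductase gene, at 0.23, and Aldh1a1, another aldehyde dehydrogenase gene, at 0.18.

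Downstream of the receptors, 30 of 31 genes for G proteins and effectors were measured, 13 higher and 17 lower, with a median of -0.02. None of the 30 reached 1.5-fold. Plcb2, a phospholipase C gene, was well above background in Il18+/+ only, at least 1.66-fold higher there by 1 probe and at least 1.27-fold by the other. These bounds leave out spot error. Kcnj3, a G-protein-gated potassium channel gene, was at -0.54 and Plcb4, a phospholipase C gene, at -0.51. Receptor desensitisation and scaffold genes had 15 of 15 measured, 10 higher and 5 lower, with a median of 0.06 that was -0.24 with spike-in scaling. Akap5, an anchoring protein gene for protein kinase A, was at 0.33, Rgs2, a regulator of Gq signalling, at 0.27 and Rgs14 at 0.20.

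Serotonin receptors had 10 of 14 measured, 4 higher and 6 lower, with a median of -0.24. Htr3a, Htr2c and Htr1f, 3 of the 10, were at least 1.5-fold lower, at -1.10, -0.87 and -0.61, beside 2.57% of all measured genes. Htr2c is known to be abundant in choroid plexus, whose 10 markers were all lower with a median of -1.19 (summed signal 380.2 and 192), and their part in its value was not tested. Htr2b was well above background in Il18-/- only, where its level was -5.20 against -5.45 in Il18+/+. That is a plain ratio of 1.19-fold at dim levels and not a lower bound.

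**Figure D4:**
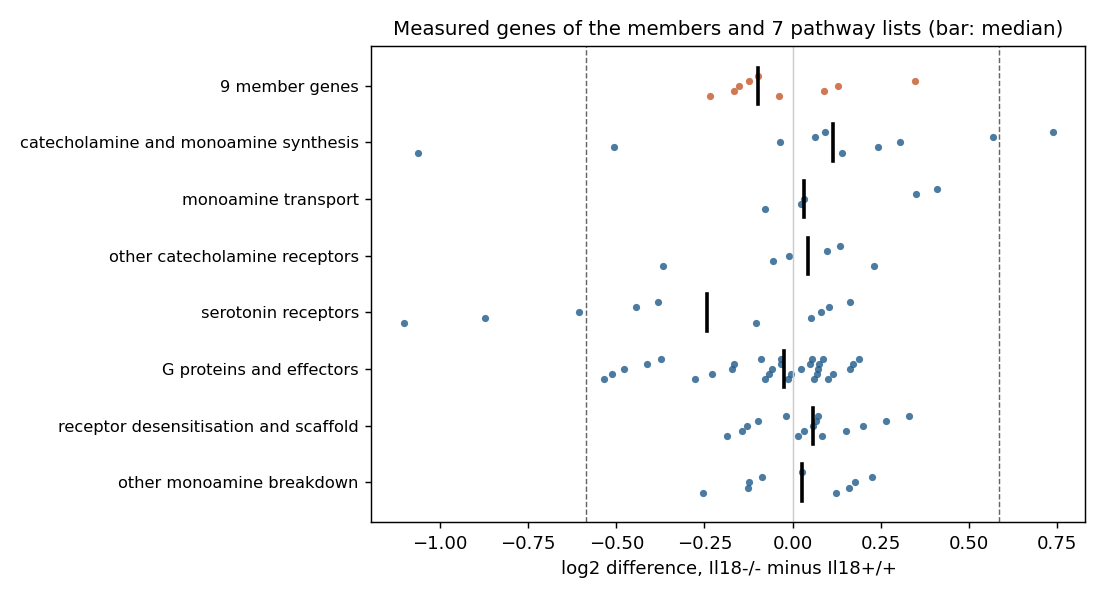
Log2 difference, Il18-/- minus Il18+/+ (horizontal axis), of the 9 members (orange) and of the measured genes of 7 pathway lists (blue), 1 point per gene, with the median of each list as a black bar and 1.5-fold as dashed lines. Points beyond the dashed lines occur among the synthesis and serotonin receptor genes only.

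Markers of other cells and tissues moved between the pools. All 10 choroid plexus markers were at least 1.5-fold lower in Il18-/-, with a median of -1.19 and a summed signal of 380.2 in Il18+/+ and 192 in Il18-/-. Most of that sum came from Ttr and Enpp2. Cldn2 was at -1.65, F5 at -1.55 and Aqp1 at -1.54. All 9 measured liver markers of 10 were at least 1.5-fold higher, with a median of 2.90 and a summed signal of 0.89 and 5.55. Alb was at 3.64, Mup20 at 3.62 and Ahsg at 3.12, and Apoa1 was well above background in Il18-/- only. All 6 measured medial habenula markers of 8 were at least 1.5-fold higher, with a median of 1.67 and a summed signal of 1.59 and 7.22. Tac2 was at 2.80, Gng8 at 2.20 and Slc5a7 at 1.77, and Chrna3 and Gpr151 were well above background in Il18-/- only. The part of these tissues in the values of the 9 members was not tested.

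Noradrenergic and serotonergic cell body markers had 3 of 8 measured. The summed signal, most of it from Th, was 1.32 in Il18+/+ and 1.39 in Il18-/-. Phox2a, Slc6a2, Slc6a4 and Tph2, which define these cells, were not well above background on either array, while Th, Dbh and Fev were measured. Dbh was at 0.57 and Fev at -0.74. The 12 hippocampal markers had a median of 0.19, or -0.11 with spike-in scaling, with 9 higher, 3 lower and Iyd at 0.86, Lct at 0.41 and Tdo2 at 0.37. The 10 neocortical markers had a median of -0.13, with Ccn2 at -0.53, Rorb at -0.27 and Bcl11b at 0.22. Thalamic markers, 7 of 8 measured, had a median of -0.16, with Cbln1 at 0.96, Tnnt1 at -0.64 and Prkcd at 0.44. Oligodendrocyte markers had a median of -0.21 over 8 of 8, with Mobp at -0.50 and Opalin at 0.49. Microglial markers were at 0.00 over 8 of 8, with Trem2 at 0.43, Aif1 at 0.24 and C1qa at -0.19. Endothelial markers were at -0.07 over 7 of 7, with Slco1c1 at -0.38, Pecam1 at -0.13 and Flt1 at -0.10, and mural cell markers at -0.08 over 7 of 7, with Myh11 at -0.54, Acta2 at -0.40 and Rgs5 at -0.28. Among astrocyte markers Slc1a2 was at -0.39 and Slc1a3 at 0.17.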

How the data were processed

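Per the labels, 7 mice of a genotype gave 1 RNA pool, read on 1 array. The deposited spot intensity came from Agilent Feature Extraction 10.10.1.1 (submitters' processing notes), and per the file headers the design uses mm9. The authors' table of values is that intensity times 1 constant per array (2.05 and 1.92, column medians 151.5 and 139.5), on a linear scale with no centring. What the constants were set to is unknown.

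From 62976 spots, 3671 control spots and outlier spots (124 in Il18+/+ and 177 in Il18-/-) were left out, and 0 of the rest were saturated. Log2 intensity minus each array's 75th percentile (692 and 707) was averaged per probe. Accessions named 27235 probes with 1 RefSeq symbol (GRCm38.p6), 0 with several, and left 28446 unnamed. A gene's difference is the mean over probes well above background on both arrays. Members and lists were chosen with earlier results of these data known. The rule named all 9 members, Il18, up to 4 genes at 1.5-fold or else 3 genes from each pathway list, and the 3 largest differences from each marker list. Some genes that the rule names are not reported here.

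The scripts were checked on simulated data, which tests the calculations and says nothing about differences between animals or pools. Neighbouring spots were the 18 nearest. Alternatives were 4 other scalings, normexp on the median signal (offset 50), filters, the brightest probe, and the deposited values. Scripts ran in R 4.3.3 with limma 3.58.1 and in Python 3.11.15 with pandas 2.3.3 and numpy 2.4.6.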

Additional observations from a re-analysis of the deposited data

How the results depend on the processing

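No paired analysis was possible because each genotype had 1 sample, and for the same reason no replicate could be left out. Under all 10 alternatives no member reached 1.5-fold, and at 2-fold the counts were also 0. The direction was kept in every alternative run for 6 of 9 members. Some alternatives could not change these values. The deposited values are the same intensity times a constant per array. All 12 member probes were well above background, so leaving out the filter on dim probes changed nothing for them. For the 6 members with 1 probe, the brightest probe is the only one. Adra1a was at -0.17 and Adra2c at -0.21 with spike-in scaling, and Drd5 at 0.02 with scaling to array medians. With spike-in scaling every member moved by more than the spread of repeated spots. Besides Adra1a and Adra2c as above, Adra1b was then at -0.45, Adra1d at -0.54, Adra2a at -0.40 and Adrb1 at -0.47. Drd5 was then at -0.34, Maoa at 0.048 and Maob at -0.42. Other moves beyond that spread came from further alternatives. With normexp on the median signal Adra2a was at -0.032 and Maoa at 0.25. Adra2c was at 0.15 with scaling to medians, at 0.029 with quantile and at 0.030 with loess normalization. Adra1d was at -0.090 by its brightest probe. Adra1a was too dim for the stricter filter on dim probes, so that alternative gave it no value. Of all measured genes, 265 were at least 1.5-fold higher and 405 lower. The counts were 129 and 1716 with spike-in scaling, 114 and 105 with normexp, 815 and 1357 with no filter on dim probes, 156 and 195 with the stricter filter, which tests fewer genes, and 102 and 71 at 2-fold. The cause of the other changes was not tested.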
